A study of Mus musculus with 4 samples.

Results

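The genes described are 33 plasma protein genes that hepatocytes express: 16 of blood coagulation, its control and fibrin breakdown, and 17 of the complement system. They were chosen by name, and each was read from the probe set (a group of array probes for 1 transcript) whose gene symbol in the platform annotation is that name, taking the brightest where a gene has several. Of the 33 genes, 31 had such a probe set (16 coagulation and 15 complement genes), out of 18193 genes in all, and all 31 lay above the filter on dim genes, which left 11993 genes. C1s was found under its current symbol C1s1 as a RefSeq synonym. No probe set carried the symbol C3 alone or with others in the annotation used, and the probe set naming C4b also named C4a, so that neither gene is among the 31.

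Liver RNA was measured on 4 Affymetrix arrays, 1 for each of 2 groups at day 7 and day 10. All mice carried the same genotype, labelled Metff/ff:ERCre+/+ (METfl/fl: TamCre+/+ in the protocol), that is, floxed Met alleles together with a Cre enzyme active in the whole body once tamoxifen is given. The group labelled delta MET + EGFRi, called treated here, was injected with tamoxifen on 5 days to remove exon 16 of Met, rested for 4 days, and was then fed canertinib, which blocks EGFR signalling, in a diet aimed at 80 mg/kg/day. Control littermates received injections of the corn oil vehicle and the same rest, but no tamoxifen and no canertinib. The effects of Met loss, tamoxifen, canertinib and any change in food intake therefore cannot be told apart. RNA of several livers was pooled for each array, the number of animals, their age and their sex are not stated in the labels, and each group has 1 array per day. The question was how the mRNAs of these plasma proteins compared between the livers of both groups, at each day and over both.

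Coagulation is a chain of serine proteases, made in the liver as inactive precursors, in which each protease cuts and activates the next until thrombin turns soluble fibrinogen into fibrin. Several of these proteases are modified with the help of vitamin K, which lets them bind calcium and membranes, and protein C and protein S restrain the chain. Complement is a second protease chain that is started by antibodies, by sugar-binding lectins or by slow spontaneous activation, and it ends with a pore that the terminal components build in the membrane of a target cell. Liver mRNAs of several members, the fibrinogen chains among them, are known to change in the acute phase response to inflammation.

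The mean signal after trimming both tails was the same on every array, the median signal ranged from 210.5 to 223.9, and log2 signals of array pairs correlated with r from 0.89 to 0.913 across probe sets. The brightest Met probe set read 976 and 1271 units in the control livers and 2432 and 2829 units in the treated livers (day 7 and day 10). This is 1.24 ± 0.23 (SE) apart on the log2 scale and short of the threshold (limma adjusted p = 0.103). The mean of the 2 Met probe sets gave a smaller log2 difference of 0.74 (adjusted p = 0.312), so that the size depends on the probe set. Whether the Met probes lie in exon 16 was not used here, so that these signals do not check the deletion. Egfr, the drug's target, differed by -0.046 ± 0.30 on the log2 scale with its brightest probe set (adjusted p = 0.969) and by -0.11 to 0.82 with 5 others. All 8 hepatocyte markers with a probe set of their own were above the filter, and their summed signal was 385589 and 374945 units in the control and 457850 and 379738 units in the treated livers. All 10 macrophage markers were higher at both days in treated livers, against 26.7% of all genes tested. Their summed signals were 15931 and 9856 units in control and 38656 and 34754 units in treated livers. C1qa, C1qb and C1qc are among these 10 and also in the list of other complement genes below. The sums were 2899 and 3253 against 8590 and 8460 units for 7 neutrophil markers. Of these, Camp was at or under the floor on all arrays, Ltf, Elane and Mpo overlapped between groups, and S100a8 (388 and 305 against 3352 and 3656 units) and S100a9 (120 and 275 against 1555 and 1702 units) made up most of the difference. The sums of 3 B and plasma cell markers were 3213 and 1594 against 11188 and 9156 units, though Cd79a overlapped (391 and 427 against 406 and 263 units). For 5 platelet markers they were 2266 and 2224 against 3119 and 3004 units, though Itga2b was lower (658 and 706 against 505 and 504 units). The 7 endothelial markers summed to 8504 and 7355 against 7720 and 10583 units. For 6 stellate cell markers the sums were 5123 and 4993 against 3491 and 4455 units. Those of 4 cholangiocyte markers were 992 and 1015 against 493 and 1276 units. The part of such cells in the differences below was not tested, and in bulk tissue fewer cells of a type cannot be told apart from less RNA per cell.

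Over both days, the coagulation genes were mostly higher and the terminal complement genes mostly lower in treated than in control livers, by up to 2.46-fold on average, and none of the 31 genes passed the test. With limma and Benjamini-Hochberg adjustment over all 11993 genes, 0 of 16 coagulation and 0 of 15 complement genes had an adjusted p under 0.05, where 0.375% of all genes passed as higher and 0.283% as lower. At an unadjusted p under 0.05 there were 5 coagulation genes, all higher, and 4 complement genes, all lower, against 5.93% of all genes higher and 6.15% lower. The lowest adjusted p among the 31 was 0.0875, that of the pore-forming component C9. Single-gene tests with 2 arrays per group leave little room here: in simulated arrays of this comparison, 1.8% of 2-fold and 56.8% of 4-fold changes were recovered. Since a group's arrays come from separate days and from pooled RNA, p-values measure only the spread between these arrays. In fits without 1 treated array, given below for single genes, the spread came from the control arrays alone. Such fits also called more of the 11993 genes than the fit of all arrays did, so that members passing there are not counted.

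Counting arrays instead, both treated signals lay above both control signals in 9 of 16 coagulation and 2 of 15 complement genes, against 20.3% of all genes. Both treated signals lay below both control signals in 1 coagulation and 6 complement genes, against 24.1% of all genes. In the remaining 6 coagulation and 7 complement genes the groups overlapped. When probe sets with the suffixes _s_at, _x_at and _a_at were left out, which mark probes shared between transcripts or genes, 2 complement genes were below (C6 and C9), since C8b, C8g and C1s have no other probe set and C2 and Masp2 took another. On the log2 scale the coagulation genes had a median difference of 0.39 at day 7 and 0.51 at day 10, the complement genes of -0.071 and -0.29, and all genes tested of -0.059 and 0.0064. With the suffixed probe sets left out the complement medians were 0.12 and 0.039. The plot of signals by array shows these groups gene by gene, and the plot of differences gives the size and error of each.

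**Figure D1:**
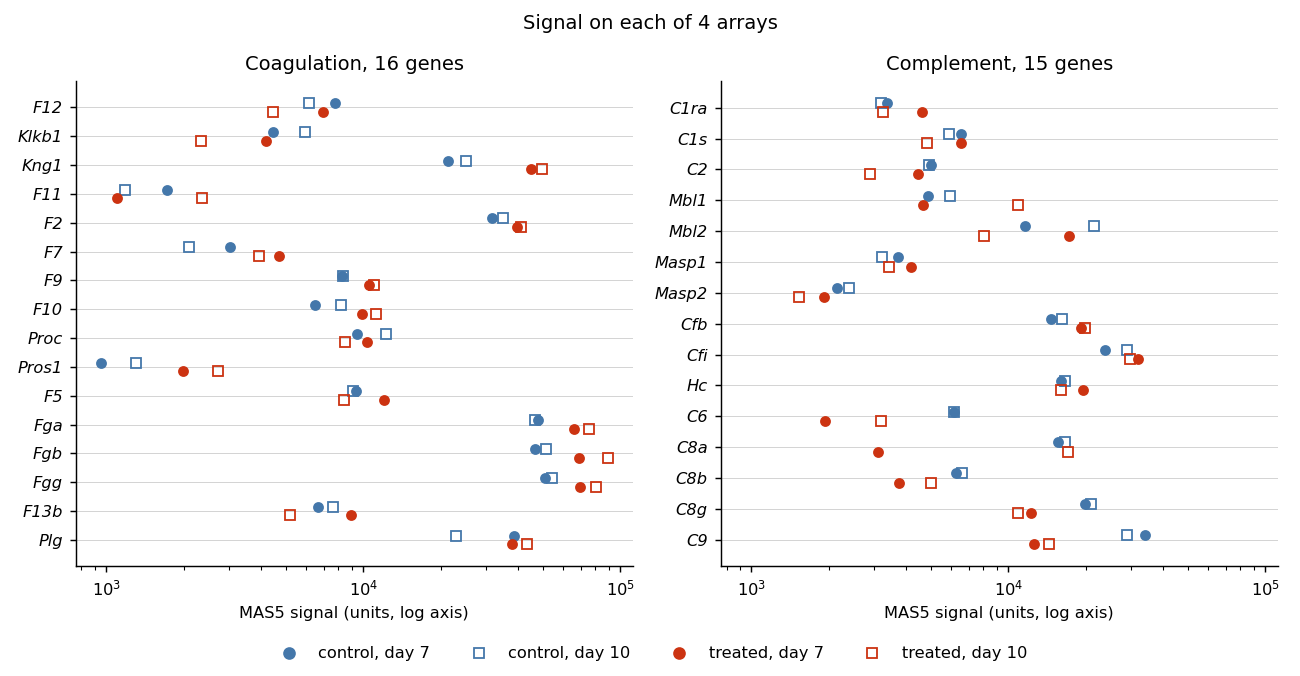
MAS5 signal (log axis) of the 16 coagulation and 15 complement genes on the 4 arrays, blue for control and red for treated livers, filled circles for day 7 and open squares for day 10. Both red points lie right of both blue points in 9 coagulation and 2 complement genes, and left of them in 1 and 6.

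**Figure D2:**
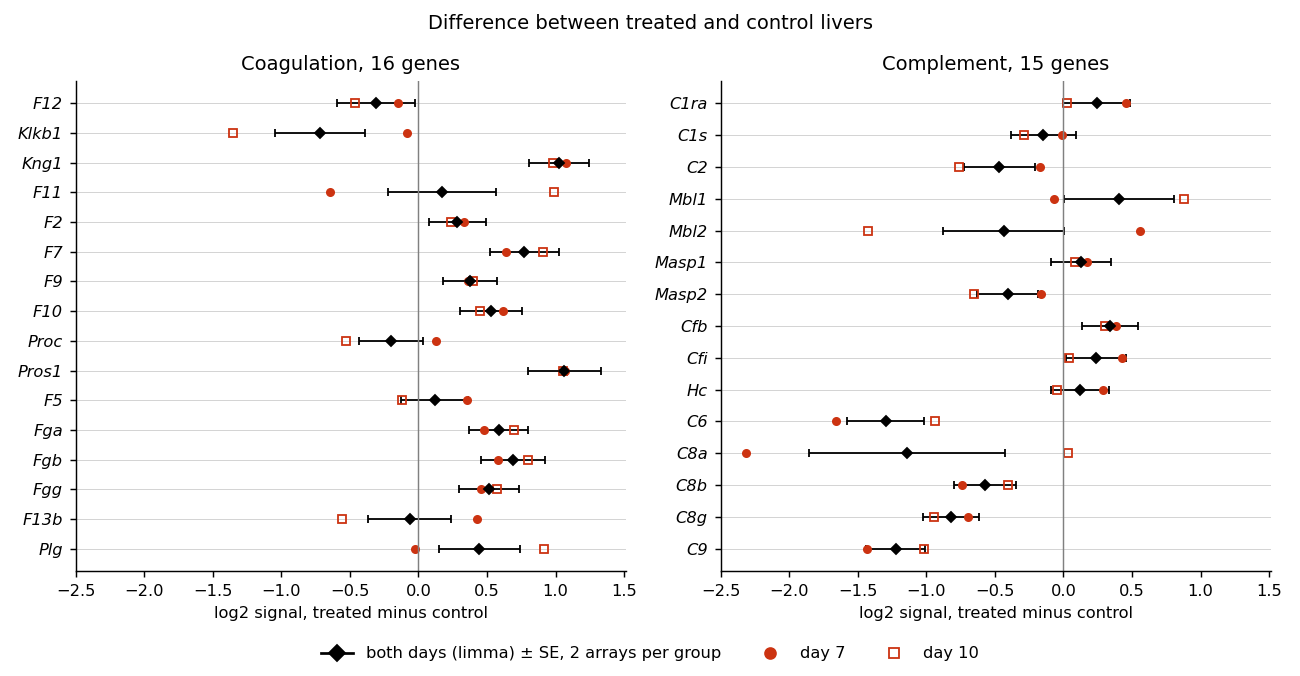
Log2 signal of treated minus control livers for the same genes, as limma's difference over both days with its SE (black, 2 arrays per group) and as the difference at day 7 (red circle) and day 10 (open square). The differences over both days range from -1.30 for C6 to 1.06 for Pros1.

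The fibrinogen genes were all higher in treated livers at both days, by 1.37-fold to 1.74-fold. Fga, Fgb and Fgg encode the Aα, Bβ and γ chains, which assemble into 1 protein before secretion. They lie side by side on mouse chromosome 3, with no other protein-coding gene between them. The 250 bases before the start of each gene are printed because the 3 genes share their direction, from RefSeq on GRCm38.p6: chr3:83025903-83026152 on the plus strand for Fga, chr3:83049864-83050113 on the minus strand for Fgb and chr3:83007474-83007723 on the plus strand for Fgg, each written 5′ to 3′ in the direction of the gene. Capitals mark matches on either strand to CTGGGAA and TTCNNNGAA (written for response elements of interleukin-6 and STAT3), TTNNGNAA (C/EBP proteins) and GTTAAT (HNF1), and matches to the first pair can overlap.
Fga: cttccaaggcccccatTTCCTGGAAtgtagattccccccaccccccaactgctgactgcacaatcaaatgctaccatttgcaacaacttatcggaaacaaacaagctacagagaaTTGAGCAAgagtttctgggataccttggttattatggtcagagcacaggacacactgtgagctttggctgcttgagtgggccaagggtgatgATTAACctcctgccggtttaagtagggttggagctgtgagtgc
Fgb: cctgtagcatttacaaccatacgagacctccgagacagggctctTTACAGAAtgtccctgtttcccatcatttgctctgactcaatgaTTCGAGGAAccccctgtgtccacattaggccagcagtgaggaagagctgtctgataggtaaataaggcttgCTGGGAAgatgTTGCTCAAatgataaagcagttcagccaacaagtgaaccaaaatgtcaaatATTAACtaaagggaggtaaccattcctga
Fgg: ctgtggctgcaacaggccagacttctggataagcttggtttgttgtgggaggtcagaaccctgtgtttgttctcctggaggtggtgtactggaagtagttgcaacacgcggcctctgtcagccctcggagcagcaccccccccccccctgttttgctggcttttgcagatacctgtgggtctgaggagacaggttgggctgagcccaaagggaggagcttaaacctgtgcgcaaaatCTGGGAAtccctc
The Fgb window matched all of these motifs: CTGGGAA from base -91 to base -85 before the gene's start, TTCNNNGAA from -162, TTNNGNAA from -206 and from -80, and GTTAAT from -29. Fga matched TTCNNNGAA from -234, TTNNGNAA from -135 and GTTAAT from -43, and Fgg matched CTGGGAA from -13 only. Of 32851 windows of 250 bases before RefSeq gene starts, 9.1% held CTGGGAA, 7.02% TTCNNNGAA, 36.8% TTNNGNAA and 6.43% GTTAAT. Among the 25 of 33 members with a promoter entry, these motifs were found in 5, 6, 13 and 7 genes. A match describes the letters and is not evidence of binding.

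Fga signals were 47630 and 46735 units in control and 66209 and 75690 units in treated livers (day 7 and day 10 here and below). Those of Fgb were 46424 and 51199 against 69318 and 89172 units. Fgg read 51070 and 54215 against 69962 and 80710 units. In each chain both treated arrays lay above both control arrays, by more than the controls differed between days (1.02-fold, 1.10-fold and 1.06-fold). The log2 differences were 0.59 ± 0.21 (SE, n = 2 arrays per group) for Fga, 0.69 ± 0.23 for Fgb and 0.51 ± 0.22 for Fgg, with limma adjusted p from 0.329 to 0.422, so that no chain passed. With quantile normalization the log2 differences were smaller, at 0.39 for Fga, 0.49 for Fgb and 0.33 for Fgg. The Fgb probe set had the highest signal of all on the treated array of day 10. Apart from this rank, the choice of the brightest probe set and the marker sums, signals of different probe sets are not compared here, since their scales differ.

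F13b, which encodes the carrier subunit of the fibrin-crosslinking factor XIII, did not follow the fibrinogen genes: its signals were 6643 and 7624 units in control and 8938 and 5180 units in treated livers, highest in treated livers at day 7 and lowest there at day 10. Plasminogen (Plg), the precursor of the protease that dissolves fibrin, read 38598 and 22931 units in control and 37958 and 43180 units in treated livers. The controls of Plg differed 1.68-fold between days, and the treated livers of day 7 lay between them, so that the groups overlapped. Its 1.88-fold difference at day 10 sets the highest of the 4 signals against the lowest.

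Among the vitamin K-dependent genes, 5 of 6 were higher in treated livers on both days, with no overlap between groups. Of all genes tested, 26.7% were higher on both days, and 20.3% had both treated arrays above both control arrays. The differences of the 5 genes varied in size. Pros1, the gene of protein S, an inhibitor of coagulation that serves protein C as its cofactor, read 952 and 1305 units in control and 1995 and 2716 units in treated livers. This was 2.10-fold at day 7 and 2.08-fold at day 10, a log2 difference of 1.06 ± 0.27 (SE, n = 2; limma adjusted p = 0.201). Over the alternative settings, left-out arrays included, the log2 difference of Pros1 ranged from 0.83 to 1.29. F7, the factor that starts the chain together with tissue factor, read 3021 and 2093 units in control and 4698 and 3932 units in treated livers (1.56-fold and 1.88-fold; adjusted p = 0.314). F10, which makes thrombin from prothrombin, read 6458 and 8201 against 9881 and 11175 units (1.53-fold and 1.36-fold; adjusted p = 0.422). Dimmer F10 probe sets did not repeat this at each day: their log2 differences were 0.64 and -0.17 in one, and 0.096 and 0.81 in the other.

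Smaller differences were seen in F9, the factor missing in haemophilia B, with 8240 and 8370 units in control and 10566 and 11038 units in treated livers, and in F2, prothrombin, with 31544 and 34911 against 39741 and 41056 units. Neither passed (limma adjusted p = 0.508 and 0.634). The values of F9 were close within each group, 1.02-fold and 1.04-fold apart. Proc, the gene of the anticoagulant protein C, was the exception of this group: its signals were 9433 and 12250 units in control and 10319 and 8480 units in treated livers. The groups overlapped for Proc, and its treated signal was the lowest of the 4 at day 10. The log2 differences of Pros1 and its partner Proc at day 10 were 1.06 and -0.53. F5, a cofactor that speeds up thrombin formation, read 9403 and 9153 units in control and 12020 and 8440 units in treated livers, with overlap. A second F5 probe set was higher at both days, with log2 differences of 0.57 and 0.42, so that the probe sets of F5 disagree at day 10.

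The contact system, which starts coagulation on charged surfaces and releases the vasoactive peptide bradykinin, did not move as a unit. Its 4 genes had log2 differences over both days from -0.72 to 1.03. Kng1, which encodes kininogen, the precursor of bradykinin, read 21445 and 25132 units in control and 45095 and 49513 units in treated livers. Both treated signals were well above both control signals, 2.10-fold at day 7 and 1.97-fold at day 10, with a log2 difference of 1.03 ± 0.22 (SE, n = 2; limma adjusted p = 0.144). The log2 difference of Kng1 ranged from 0.74 to 1.14 over the alternative settings, left-out arrays included. The other Kng1 probe set was also higher, but less so (1.30-fold and 1.46-fold).

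Klkb1, the gene of plasma prekallikrein, which cuts kininogen, went the other way: it read 4433 and 5940 units in control and 4175 and 2328 units in treated livers. The difference was 1.06-fold lower at day 7 and 2.55-fold lower at day 10 (limma adjusted p = 0.457 as deposited). With arrays scaled to equal medians the groups overlapped. Over the alternative settings the log2 difference of Klkb1 ranged from -1.14 to -0.30. F12, the protease that begins contact activation, read 7760 and 6123 against 6984 and 4438 units, with overlap. F11, which F12 activates, read 1729 and 1181 units in control and 1104 and 2345 units in treated livers, the lowest value at day 7 and the highest at day 10 both being treated. F11 and Klkb1 are related in sequence and adjacent on chromosome 8. At day 10 their log2 differences were 0.99 and -1.35.

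The 4 lowest differences among the members over both days were those of the terminal complement genes C6, C9, C8a and C8g. C6, C8a, C8b, C8g and C9 encode proteins of the membrane attack complex, with a median over these 5 of -1.43 (log2) on day 7 and of -0.94 on day 10. Hc, the gene of C5 from which the complex starts, did not go with these 5: it read 15998 and 16545 units in control and 19498 and 16024 units in treated livers, with overlap. The terminal list as fixed includes Hc, and over its 6 genes the medians were -1.08 and -0.67. C7 had no named probe set. The plot of fibrinogen and terminal complement signals shows both groups on linear axes.

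**Figure D3:**
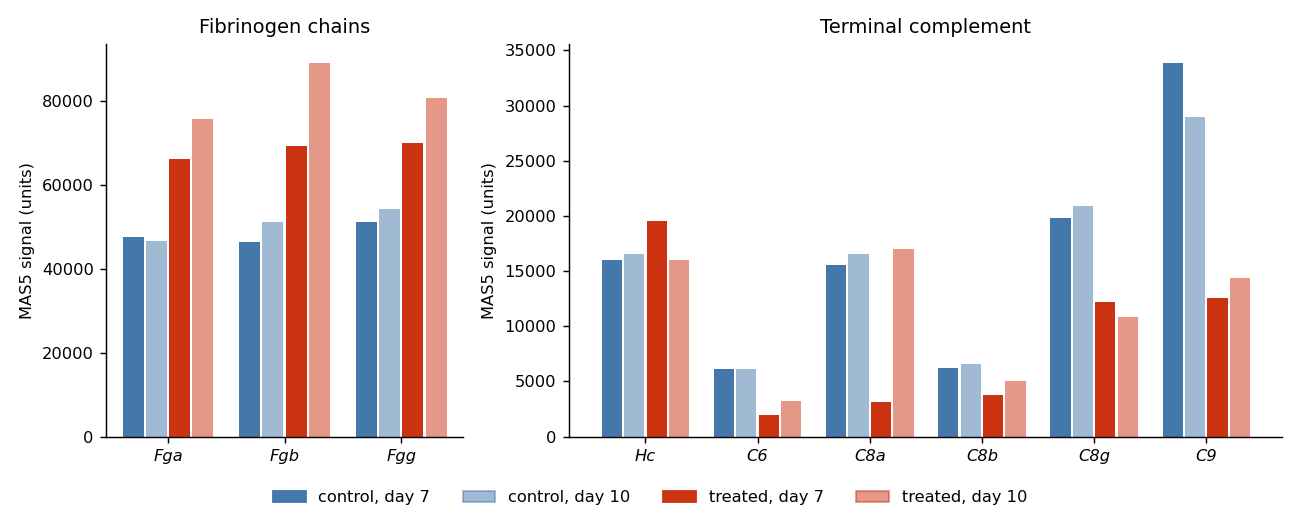
MAS5 signal (units, axes from 0) of the 3 fibrinogen chains and 6 terminal complement genes, 1 bar per array, blue for control and red for treated livers, full colour for day 7 and pale for day 10. Both red bars exceed both blue bars in each fibrinogen chain, and both lie under the blue bars in C6, C8b, C8g and C9, while C8a is low in treated livers at day 7 only.

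C9, which polymerises into the pore, read 33893 and 29012 units in control and 12582 and 14361 units in treated livers. That is 2.69-fold lower at day 7 and 2.02-fold lower at day 10, and the log2 difference of -1.22 ± 0.22 (SE, n = 2) had limma adjusted p = 0.0875. The adjusted p of C9 was 0.00741 when the treated array of day 7 was left out and 0.00474 when that of day 10 was, and 0.557 and 0.454 when the control array of day 7 or of day 10 was left out. C6, which joins C5b at the start of assembly, read 6118 and 6119 units in control and 1940 and 3196 units in treated livers. The C6 controls were nearly equal and both treated signals were lower, by 3.15-fold at day 7 and 1.91-fold at day 10 (log2 difference -1.30 ± 0.28, adjusted p = 0.151). Over the alternative settings the log2 difference of C6 ranged from -1.66 to -0.94.

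C8 has 3 chains, and each has its own gene. C8g, whose γ chain is a lipocalin and not a pore former, read 19804 and 20909 units in control and 12202 and 10859 units in treated livers (log2 difference -0.82 ± 0.20, n = 2; limma adjusted p = 0.200). That difference ranged from -0.92 to -0.74 over the alternative settings. C8b read 6241 and 6601 against 3739 and 4988 units (log2 difference -0.57 ± 0.23; adjusted p = 0.396). Both treated arrays were under both control arrays for C8b and C8g. C8a differed in time: it read 15539 and 16569 units in control livers, 3116 units in treated livers at day 7 and 16993 units at day 10. The single low array put C8a 4.99-fold below control at day 7, and at day 10 it lay 1.03-fold above. C8a has 1 probe set, and its log2 difference over both days was -1.14 ± 0.71 (adjusted p = 0.580); without the day 10 treated array it was -2.36 (adjusted p = 0.000327), and without that of day 7 it was 0.083. C8a and C8b are adjacent on chromosome 4, and their log2 differences were -2.32 and -0.74 at day 7 and 0.036 and -0.40 at day 10.

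C6 and C9 lie near each other on chromosome 15, with 8 protein-coding genes between them. Their windows are printed to set them beside the fibrinogen windows, at chr15:4726960-4727209 on the plus strand for C6 and chr15:6445096-6445345 on the plus strand for C9 (GRCm38.p6, RefSeq), with capitals as above.
C6: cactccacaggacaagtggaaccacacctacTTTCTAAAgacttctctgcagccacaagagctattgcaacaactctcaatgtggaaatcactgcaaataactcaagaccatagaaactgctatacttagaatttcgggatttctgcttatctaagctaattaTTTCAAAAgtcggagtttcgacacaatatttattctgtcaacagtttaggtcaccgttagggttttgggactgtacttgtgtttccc
C9: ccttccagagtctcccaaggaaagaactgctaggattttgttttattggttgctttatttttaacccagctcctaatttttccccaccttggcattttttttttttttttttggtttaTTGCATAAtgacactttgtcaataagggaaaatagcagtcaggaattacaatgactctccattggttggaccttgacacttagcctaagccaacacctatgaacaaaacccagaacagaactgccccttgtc
The C6 window matched TTNNGNAA from base -219 and from base -87, and the C9 window matched it from -132. Neither window held CTGGGAA, TTCNNNGAA or GTTAAT, which says only that these letters are not in these 250 bases. C8a matched TTCNNNGAA from -228 and GTTAAT from -107, and C8b matched TTNNGNAA from -153 and GTTAAT from -206.

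The lectin and classical pathway genes, which start complement, lay between -0.47 and 0.40 on the log2 scale over both days, with larger differences on single days. In the lectin pathway, the mannose-binding lectins Mbl1 and Mbl2 bind sugars on microbes, and Masp1 and Masp2 encode the proteases they carry. Mbl2 read 11654 and 21592 units in control and 17139 and 8024 units in treated livers, so that it was 1.47-fold higher at day 7 and 2.69-fold lower at day 10. Mbl1 read 4883 and 5927 units in control and 4648 and 10904 units in treated livers, 1.05-fold lower and then 1.84-fold higher. The lectin genes thus had opposite signs at each day, and the Mbl2 controls alone differed 1.85-fold. Neither passed (limma adjusted p = 0.735 for Mbl1 and 0.740 for Mbl2).

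Masp2, whose protease cuts C4 and C2, read 2146 and 2397 units in control and 1918 and 1526 units in treated livers with its brightest probe set, and its other probe set had log2 differences of -0.026 and 0.25. Masp1 read 3720 and 3223 against 4187 and 3418 units, with overlap. In the classical pathway C2 read 5000 and 4923 units in control and 4443 and 2898 units in treated livers. That C2 probe set has the suffix _x_at, and another without a suffix gave log2 differences of 0.062 and 0.31, so that the direction for C2 depends on the probe set. The subunits of the C1 protease complex overlapped between groups: C1ra read 3372 and 3184 against 4631 and 3243 units, and C1s 6556 and 5861 against 6522 and 4807 units. C1ra and C1s are adjacent on chromosome 6.

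Cfb, the protease of the alternative pathway, and Cfi, which inactivates C3b and C4b, were the complement genes with both treated arrays above both control arrays. Cfb read 14672 and 16182 units in control and 19102 and 19918 units in treated livers (1.30-fold and 1.23-fold; limma adjusted p = 0.562). Cfi read 23792 and 28840 against 32052 and 29671 units, with the day 10 values 1.03-fold apart (adjusted p = 0.710). For Cfi the groups thus almost touched. With quantile normalization or equal medians, 1 complement gene had both treated arrays above.

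The days were also described singly. At day 7, 2 coagulation genes (Kng1 and Pros1) and 0 complement genes were at least 2-fold higher, against 4.6% of all genes, and 0 coagulation and 3 complement genes (C6, C8a and C9) at least 2-fold lower, against 5.16%. At day 10 only Pros1 was at least 2-fold higher, against 5.84% of all genes, and Klkb1, Mbl2 and C9 were at least 2-fold lower, against 4.91%. Each day has 1 array per group, so that these counts have no test. C9 and Pros1 were past 2-fold at both days, while Kng1 (1.97-fold) and C6 (1.91-fold) were just short of it at day 10. The plot of day 7 against day 10 differences shows C6, C9, C8g and C8b in the lower left, the fibrinogen chains with F7, F9, F10, Kng1 and Pros1 in the upper right, and C8a, Mbl2, Klkb1 and F11 away from the diagonal.

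**Figure D4:**
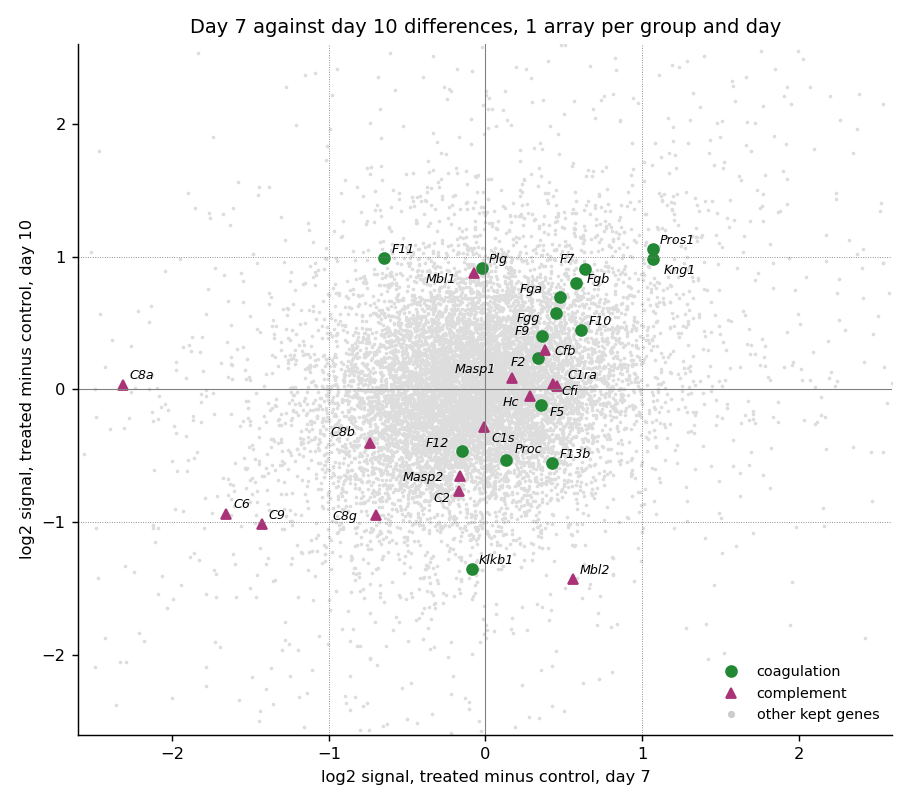
Log2 signal of treated minus control at day 7 (x axis) and day 10 (y axis), 1 array per group and day, for coagulation genes (green circles), complement genes (purple triangles) and other genes above the filter (grey); 187 of 11993 genes lie outside the window of ±2.6. Dotted lines mark 2-fold; C9 lies past both lower lines and Pros1 past both upper lines.

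Neighbouring members gave mixed pictures. F7 and F10, adjacent on chromosome 8, were both higher at both days, as were the fibrinogen chains. Of the other adjacent pairs with values, F11 and Klkb1, C8a and C8b, C1ra and C1s, and Cfb and C2 differed from each other in sign at 1 or both days. With the C2 probe set without a suffix (0.062 and 0.31), C2 and Cfb (0.38 and 0.30) had the same sign at both days. The 8 genes between C6 and C9 were not examined.

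Other genes of coagulation and fibrin breakdown came from a list of 28, chosen with earlier results of these data known. They gave no call either: 21 were above the filter, 0 passed limma's test and 1 had an unadjusted p under 0.05. Of all genes tested, 0.375% passed as higher and 0.283% as lower, and 5.93% and 6.15% had an unadjusted p under 0.05. At least 2-fold apart were 2 of the 21 at each day. At day 7 these were Proz (2.18-fold higher) and F8 (2.12-fold lower). At day 10 they were Thbd (2.05-fold higher) and Serpina10. Proz, F8 and Thbd are named for that count, after their values were seen. Among all genes tested, 4.6% were at least 2-fold higher and 5.16% at least 2-fold lower at day 7. At day 10 these shares were 5.84% and 4.91%. With 1 array per group and day, the counts have no test. Over the 21, the median was 0.11 (log2) on day 7 and 0.23 on day 10. The gene with an unadjusted p under 0.05 was Serpina10, which encodes the protein Z-dependent inhibitor of factor Xa. It read 10622 and 11047 units in control and 19317 and 44772 units in treated livers (1.82-fold and 4.05-fold; adjusted p = 0.236). Over the alternative settings its log2 difference ranged from 0.83 to 2.05. Hrg, a plasma glycoprotein that binds heparin and plasminogen, was 1.86-fold and 1.37-fold higher, and Serpinf2, the plasmin inhibitor, 1.20-fold and 1.63-fold. The same list rule named F13a1 (1.59-fold higher over both days), Plaur (1.28-fold) and Mcfd2 (1.22-fold). None of these passed, with limma adjusted p from 0.449 to 0.626 for the last 5 genes. The log2 difference of Hrg ranged from 0.27 to 1.07 over the alternative settings.

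Of 25 other complement genes, 18 were above the filter, and limma called 2 higher and 0 lower. Among all genes tested, 0.375% were called higher and 0.283% lower. Properdin (Cfp), which stabilises the alternative pathway's convertase and is made by white blood cells, rose 5.76-fold, from 273 and 281 units to 1660 and 1532 units (limma adjusted p = 0.00795). C1qc, a chain of the antibody-binding C1q made by macrophages, rose 4.83-fold, from 1479 and 894 units to 5909 and 5228 units (adjusted p = 0.0302), and it is also among the 10 macrophage markers above. C1qa and C1qb were 3.52-fold and 1.70-fold higher and did not pass (adjusted p = 0.178 and 0.422). The log2 difference of C1qa, 1.82, became 2.50 if the control array of day 7 is left out and 1.14 if that of day 10 is. That of C1qb, 0.76 with a probe set of suffix _x_at, was 1.62 without suffixed probe sets (adjusted p = 0.0648), 1.60 with quantile normalization (adjusted p = 0.059), and 0.38 without the day 10 control array. The receptors of the complement peptides, C3ar1 and C5ar1, were 2.01-fold and 2.11-fold higher without passing. The calls of Cfp and C1qc were lost without either control array (adjusted p from 0.0653 to 0.218), and a second Cfp probe set had a log2 difference of 0.12. Among the hepatocyte members of complement 0 of 15 were called. This difference between lists was not tested.

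Regulators known to act on these genes came from a list of 16, chosen with earlier results of these data known. Of these, 14 were above the filter and limma called 3, all higher, against 0.375% of all genes called higher and 0.283% lower. At an unadjusted p under 0.05 limma had 7 higher and 1 lower, against 5.93% of all genes higher and 6.15% lower. The lower gene was Foxa1 (2.37-fold at day 7 and 1.41-fold at day 10, adjusted p = 0.347). The interleukin-1 receptor Il1r1 rose, from 134 and 118 units to 2330 and 2914 units (limma adjusted p = 0.00128; 0.0958 without a filter). Its control signals were under the filter signal of 204, so that it passed the filter through the treated arrays. Its log2 difference was 4.38, and 4.19 with a higher floor, and it was not among the genes tested once its 2 probe sets were averaged. The C/EBP factors of the acute phase Cebpd and Cebpb rose 4.18-fold (adjusted p = 0.0226) and 2.98-fold (adjusted p = 0.0307). The calls of Cebpb and Cebpd were lost without either control array, at adjusted p from 0.141 to 0.325, and their other probe sets did not pass (log2 differences 0.98 and 0.77). Stat3, which carries the interleukin-6 signal, was 2.12-fold and 3.61-fold higher at day 7 and day 10 (adjusted p = 0.0865; 0.00297 if the treated array of day 7 is left out and 0.0334 if that of day 10 is). Its feedback inhibitor Socs3 was 3.46-fold and 19.7-fold higher (adjusted p = 0.164; passing without either treated array), while the hepatocyte factor Hnf4a was 2.14-fold and 1.54-fold higher (adjusted p = 0.212; 0.0495 without the day 10 treated array; log2 difference -0.25 with another probe set). Whether any of these regulators acts on the coagulation and complement genes was not tested.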

How the data were processed

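Liver RNA of 2 groups was measured at 2 days on 4 arrays. Per the submitters' processing notes the authors used MAS5 (no version stated). Their deposited tables hold linear signal intensity per probe set, with a 2% trimmed mean of 500 on each array, as the values show. MAS5 scaling assumes equal overall signal. Detection calls were not used here. All 4 value columns belong to the series.

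The arrays carry 45101 probe sets. Besides 64 controls, 34945 had 1 gene symbol, 932 several and 9160 none. Signals under the 25th percentile (64.8) were set to it, log2 was taken, the brightest probe set stood for a gene, and genes with a mean log2 above 7.67 (a signal of 204) were kept. The groups were tested in limma 3.58.1 under R 4.3.3 (intensity trend, 2 arrays per group, 2 residual degrees of freedom, two-sided, Benjamini-Hochberg adjusted p under 0.05). Single days were described by a 2-fold rule without a test. The fit was tested on simulated data with 200 changed genes of 11993 in 10 runs. Alternatives concerned scaling, floor, filter, probe sets, trend, a day block, thresholds and left-out arrays. Deviations of same-day arrays from their group means correlated at r = -0.069 across genes, and day was therefore not used as a pairing. Pathway genes were named where they passed or, up to 6 per list, by the smaller of their same-sign daily differences. Members and lists were chosen with earlier results of these data known. Figures used Python 3.11.15 and matplotlib 3.10.9.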

Additional observations from a re-analysis of the deposited data

Results flagged for a closer look

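In 9 of the 31 measured genes (29.0%) the difference between treated and control livers had opposite signs at day 7 and day 10. The share was higher among all genes tested, at 42.1%. With 1 array per group and day, the change between days was not tested. The log2 differences were -2.32 at day 7 and 0.036 at day 10 for C8a, 0.56 and -1.43 for Mbl2, and -0.65 and 0.99 for F11. They were 0.43 and -0.56 for F13b, -0.071 and 0.88 for Mbl1, and -0.024 and 0.91 for Plg. The smallest were 0.13 and -0.53 for Proc, 0.35 and -0.12 for F5, and 0.29 and -0.046 for Hc.

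The probe set that names both C4a and C4b, left out of the comparisons, read 29326 and 24142 units in control and 45876 and 42674 units in treated livers, a log2 difference of 0.73. It cannot assign the signal to C4b, the classical pathway component, or to its close relative C4a.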

How the results depend on the processing

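With all 4 arrays no member had an adjusted p under 0.05 in any alternative, and as deposited 1 complement gene (C9) was lower at an adjusted p under 0.1; with the filter at the 75th percentile Kng1 was under 0.1 as well (0.0948). The lowest adjusted p of a member ranged there from 0.059 with quantile normalization to 0.309 without a filter, where 0 of 18193 genes passed limma's test (1918 at an unadjusted p under 0.05). With day as a replicate block 0 members passed (lowest adjusted p 0.228), and 24 genes were called higher and 23 lower against 45 and 34; C1qc, Cebpb and Cebpd lost their calls (adjusted p 0.0518, 0.116 and 0.0675), as they did without the intensity trend. Without a filter all 5 called pathway genes lost their calls, and with probe sets averaged per gene C1qc, Cfp, Cebpb and Cebpd did, while Il1r1 was not among the genes tested.

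The coagulation median at day 7 was 0.24 with quantile normalization and 0.48 with equal medians. The 2-fold count of coagulation genes at day 7 was 1 with quantile normalization and 1 with the mean of probe sets. Without suffixed probe sets the complement medians turned positive, to 0.12 at day 7 and 0.039 at day 10, over 28 members in all, as did C2 (0.19) and Masp2 (0.11). At 1.5-fold, 5 coagulation genes at day 7 and 8 at day 10 were apart, and 5 and 7 complement genes; at 3-fold, 0 and 0 coagulation genes, and 2 complement genes at day 7 (C6 and C8a) and 0 at day 10. Among counts of groups without overlap, a measure added after seeing the data, complement above was 1 with quantile normalization and 1 with equal medians, coagulation below was 0 with equal medians, and complement below was 2 without suffixed probe sets.

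With 1 array left out, a group held 1 array, so that members called in those fits are not counted. The sign turned for 11 members, whose log2 differences then ranged from -0.64 to 0.019 (F12), -0.37 to 0.71 (F11), -0.14 to 0.37 (F5), -0.46 to 0.33 (F13b), -0.015 to 0.50 (C1ra), -0.37 to 0.074 (C1s), -0.21 to 1.02 (Mbl1), -0.98 to 0.11 (Mbl2), -0.019 to 0.27 (Masp1), -0.022 to 0.26 (Hc) and -2.36 to 0.083 (C8a), and for Egfr (-0.43 to 0.34). Other probe sets turned the sign of C2 (0.19), Masp1 (-0.48), Masp2 (0.11), Hnf4a (-0.25) and Egfr (0.82, 0.43, 0.61 and 0.016; 0.25 as their mean). The cause was not tested. Signals near the floor of 64.8 have no order; no member was near it.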
